A study of Mus musculus with 6 samples.

Results

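The heat shock chaperones of the cytosol and their close relatives were examined in C1498 cells, a murine acute myeloid leukemia (AML) line, recovered from mice with and without cytarabine treatment. The group held 10 genes chosen by symbol: the heat shock transcription factor Hsf1, the HSP70 genes Hspa8, Hspa1a and Hspa1b, the nucleotide exchange factor Hsph1, the J protein gene Dnajb1, the HSP90 genes Hsp90aa1 and Hsp90ab1, and the chaperonin pair Hspd1 and Hspe1. All 10 were present among the 23284 genes listed, and 8 passed the expression filter applied before testing. Of the 10, Hspd1 and Hspe1 encode proteins of the mitochondrial matrix and Hsf1 encodes a transcription factor, so only the other 7 encode cytosolic chaperones in the strict sense. Each library came from 1 mouse, with 3 mice in the cytarabine group and 3 in the control group. C1498 cells carrying GFP from a retrovirus were established as 1 clone, injected into a vein of C57BL/6 J mice, and sorted from bone marrow as GFP-positive, CD49b-positive cells at day 21 after transfer. The cytarabine group received this nucleoside analog, which blocks DNA synthesis. The control group carried the same leukemia without cytarabine, being described as PBS in some sample records and as untreated elsewhere. Expression was given as FPKM, fragments divided by transcript length and by the total mapped, so levels are per length and relative to each library's total. They can be compared between genes of a library. A difference between libraries also depends on what else each library holds.

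Chaperones of the HSP70 and HSP90 families bind unfolded or unstable client proteins and release them in cycles driven by ATP. J proteins such as Dnajb1 deliver clients to HSP70, exchange factors such as Hsph1 reset it, and the adaptor Stip1 hands clients on to HSP90. When unfolded protein accumulates, HSF1 is freed from chaperones, forms trimers and binds heat shock elements, which are inverted repeats of the unit GAA, in the promoters of chaperone genes. Leukemia cells, like other dividing cells, keep high levels of the constitutive members Hspa8 and Hsp90ab1, while Hspa1a and Hspa1b are the classical genes that heat or proteotoxic stress switches on.

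The promoter sequences are shown because the members differ in how many exact repeats of the HSF1 binding unit lie at their start sites. RefSeq promoter windows on GRCm38.p6, each running from 250 bases before to 50 bases after a start site, covered 6 of the 10 members: Hspa1a, Hspa1b, Hsph1, Dnajb1, Hspe1 and Hspd1. Hsf1, Hspa8, Hsp90aa1 and Hsp90ab1 had no entry. The element of 3 units was searched as GAA-NN-TTC-NN-GAA and TTC-NN-GAA-NN-TTC (hyphens separate units and N is any base) on both strands, and the shorter element of 2 units as GAA-NN-TTC and TTC-NN-GAA, which also matches inside every longer one. Capitals mark the matches, and positions are distances from the annotated start site counted as 0.
Hspe1, chr1:55088053-55088082, + strand, from −95 to −66: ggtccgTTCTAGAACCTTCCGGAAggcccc
Hsph1, chr5:149636351-149636380, − strand, from −44 to −15: gggtagaatctTTCTCGAAggctcgagaag
Hsph1, chr5:149636287-149636308, − strand, from 28 to 49: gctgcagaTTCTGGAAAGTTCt
Hspa1a, chr17:34972157-34972296, − strand, from −140 to −1: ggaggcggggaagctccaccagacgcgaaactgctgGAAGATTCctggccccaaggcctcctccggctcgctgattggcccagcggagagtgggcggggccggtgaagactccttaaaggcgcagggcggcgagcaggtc
Hspa1b, chr17:34959239-34959378, − strand, from −140 to −1: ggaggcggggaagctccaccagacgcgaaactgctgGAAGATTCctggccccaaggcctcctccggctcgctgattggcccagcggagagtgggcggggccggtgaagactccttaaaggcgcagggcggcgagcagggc

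The element of 3 units was found in 3 of the 6 members with a window, namely Hspe1, Hspd1 and Hsph1. In the whole table it was found in 0.662% of the 27025 genes and 0.603% of the 32851 windows. The Hspe1 match extends to 4 alternating units. Hspe1 and Hspd1 are transcribed away from each other. In the GENCODE annotation their 5′ ends overlap, with the starts 111 bases apart. The match lies upstream of the Hspe1 start. It also lies in 1 of the 2 Hspd1 windows, upstream of the start site of that window, at −144 and −139. The other Hspd1 window, chr1:55088194-55088493, holds no match of either length. In Hsph1 the longer match lies downstream of the start site and a match of 2 units lies upstream. Hspa1a and Hspa1b carry 1 match of 2 units each, at −104, a length present in 15.1% of all windows. Their upstream sequences differ at 1 of the 140 bases shown and at 3 of the 250 bases of the window. No match of either length was found in the Dnajb1 windows, and a match is a run of letters and not evidence of binding. The search allowed no mismatch in a unit, so imperfect repeats were missed. A short or missing match does not mean that a longer heat shock element is absent. CCAAT was present in windows of Hsph1, Dnajb1, Hspa1a, Hspa1b and Hspd1, against 41.1% of all genes and 37.4% of all windows. TATAAA, in 15.7% of all genes, and the CArG box bound by serum response factor, in 1.81%, had no match in the 6 members with a window.

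The members lie at separate loci, apart from the Hspd1 and Hspe1 pair and the neighbouring genes Hspa1a and Hspa1b. In the GENCODE annotation of GRCm38, Hsf1 lies at chr15:76477422-76501913, Hspa8 at chr9:40800984-40810087, Dnajb1 at chr8:83608193-83612653 and Hspe1 at chr1:55088132-55091307, all on the + strand. On the − strand are Hspd1 at chr1:55077835-55088243, Hsph1 at chr5:149614287-149636376, Hsp90aa1 at chr12:110690605-110702728, Hsp90ab1 at chr17:45567775-45573271, Hspa1a at chr17:34969190-34972156 and Hspa1b at chr17:34956436-34959238. Several members share long stretches with copies elsewhere. Of the 75-base windows of each transcript, 68.0% were also present in a transcript of another gene for Hspa8, 53.1% for Hsp90aa1, 33.7% for Hspd1 and 23.7% for Hspe1. For Hspa1a and Hspa1b the shares were 54.2% and 55.8%, mostly with each other, while Hsf1, Hsph1 and Dnajb1 had no such window and Hsp90ab1 had 0.736%. How the authors' counting divided such reads is not given in the sources used here, so the levels of Hspa8, Hsp90aa1, Hspd1, Hspe1 and above all Hspa1a and Hspa1b are uncertain to that extent.

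The libraries differed in more than treatment, and these differences bear on every value that follows. The white blood cell gene Ptprc (CD45) was at 284 to 386 FPKM. The sorted antigen gene Itga2 (CD49b) was at 7.79 to 8.11 FPKM with cytarabine and 10.6 to 13.3 in controls, without overlap. Ptprc and Itga2 are 2 of the 10 genes listed for the leukemia line. Of the others, Cd33, Itgam and Kit stayed at or below 4.76 FPKM in all 6 libraries and Cebpa at or below 2.18. Mpo was at 2.33 to 71.1 FPKM, Sfpi1 (Spi1) at 2.49 to 7.72 and Csf1r at 0.912 to 5.81. Myb was at 13.8 to 16.7 FPKM with cytarabine and 9.23 to 12.0 in controls. Of the 9 tested genes of this list, 2 were higher and 3 lower with cytarabine without overlap between groups. Over all genes tested, 10.9% were higher and 12.9% lower in this way. The identity of the cells was not tested. Of the 8 T cell markers, Cd3g was at 449 to 652 FPKM and Cd3e at 130 to 199. Cd3d was at 7.66 to 9.99 FPKM with cytarabine and 3.61 to 4.47 in controls, without overlap. None of the other 5 (Cd4, Cd5, Cd8a, Cd8b1 and Cd247) reached 1 FPKM in any library. The 13 colon epithelium markers listed summed to 5122 and 5548 FPKM in cytarabine 2 and 3 and to 2485 in control 1, but to 393 in cytarabine 1 and to 33.3 and 30.3 in controls 2 and 3. The 10 heart markers summed to 3039 FPKM in control 1, 795 in cytarabine 3, 629 in control 2 and at most 60.9 in the other libraries. Smooth muscle markers summed to 123 to 1184 FPKM in cytarabine libraries and 24.9 to 964 in controls. None of the tested colon (12), heart (9) or smooth muscle (8) markers passed an unadjusted p of 0.05 between groups. Neutrophil markers summed to 189 to 1433 FPKM in cytarabine libraries, the highest being cytarabine 1, and to 1438 to 2043 in controls, and 7 of the 8 were lower with cytarabine at an unadjusted limma p below 0.05. No marker of these lists was at 0 in every library. Library depth, inferred from the steps between low FPKM values, was 11250000 to 18700000 reads. In RNA of a mixed sample, fewer cells of a type and less RNA per cell cannot be told apart.

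The members spanned a wide range of levels, and the order was nearly the same in every library. In controls Hspa8 (2497 ± 129 FPKM, SD, n = 3) and Hsp90ab1 (2397 ± 217) stood at the top. Their ranges overlapped in both groups, and Hspa8 was the higher of the 2 in only 2 of 6 libraries. Over the 6 libraries Hspa8 ranked between 28 and 69 and Hsp90ab1 between 31 and 60 among all genes. Next came Hspd1 at 944 ± 63.2 FPKM in controls, 2.54-fold below Hsp90ab1, and then Hspe1 at 661 ± 63.2 and Hsp90aa1 at 625 ± 64.8, which overlapped each other. Hsph1 (243 ± 26.3), Dnajb1 (45.3 ± 3.81) and Hsf1 (37.7 ± 3.28) followed without overlap between neighbours. The stress-inducible genes Hspa1b (0.668 ± 0.362 FPKM) and Hspa1a (0.198 ± 0.0909) were lowest, with 56.3-fold between Hsf1 and Hspa1b, and their own ranges overlapped.

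**Figure D1:**
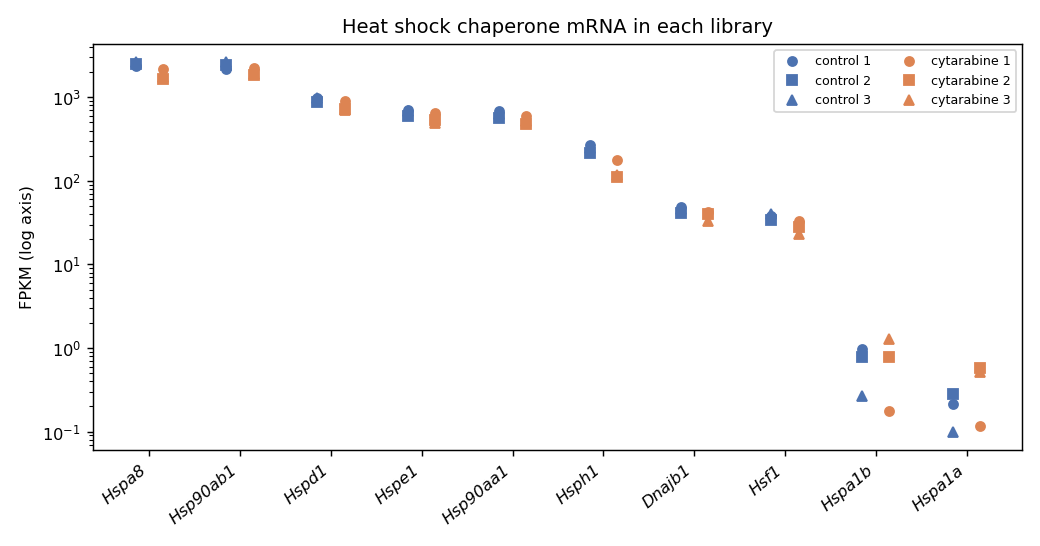
Level of the 10 members in each of the 6 libraries, as FPKM on a log axis, with controls in blue, cytarabine libraries in orange and replicate numbers as marker shapes. Hspa8 and Hsp90ab1 sit between 1666 and 2609.8 FPKM, Hsf1 and Dnajb1 between 22.9 and 48.6, and Hspa1a and Hspa1b at or below 1.29.

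Cytarabine libraries had lower mean levels of all 8 members that could be tested, and no member passed the test after adjustment. The largest difference was in Hsph1, which was 44.5% lower (a ratio of 0.555), followed by Hspa8 and Hsf1, which were 25.9% and 25.7% lower. The median log2 fold change of the 8 was −0.28, against −0.0015 over the 11703 genes tested, of which 50.3% were below 0. By limma's two-sided test, with the trend option and p-values adjusted by Benjamini-Hochberg over all genes tested, no member and no gene at all (0%) reached an adjusted p below 0.05. At an unadjusted p below 0.05, 4 of the 8 members were lower and none was higher, where 17.4% of all genes tested passed, 9.81% lower and 7.6% higher. In 3 of the 8 every cytarabine library was below every control library, which held for 12.9% of genes tested, and in none was every cytarabine library above, which held for 10.9%. Because the members share libraries and vary together, these counts are not over independent genes.

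Hsf1, the transcription factor of the heat shock response, measured 32.8, 28.2 and 22.9 FPKM in cytarabine libraries 1 to 3. Controls 1 to 3 measured 38.4, 34.1 and 40.5 FPKM. Every cytarabine library was below every control, the nearest pair being cytarabine 1 and control 2. The means were 27.98 ± 4.94 and 37.7 ± 3.28 FPKM (SD, n = 3), with a log2 fold change of −0.43 (SE 0.14, 95% interval −0.78 to −0.08), an unadjusted limma p of 0.0249 and an adjusted p of 0.231.

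Hspa8, the constitutive HSP70 that folds new proteins and uncoats clathrin vesicles, measured 2160.2, 1666 and 1724 FPKM in cytarabine libraries 1 to 3. Its controls measured 2356, 2527 and 2608 FPKM. The groups did not overlap, and cytarabine 1 lay nearer to the controls than to the other treated libraries. The means were 1850.1 ± 270.2 and 2497 ± 129 FPKM, with a log2 fold change of −0.44 (SE 0.11, 95% interval −0.72 to −0.16), an unadjusted limma p of 0.00859 and an adjusted p of 0.180.

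Hsph1, the HSP110 protein that exchanges nucleotide on HSP70 and helps to dissolve aggregates, showed the widest separation. The cytarabine libraries measured 178, 110.5 and 117 FPKM and the controls 268, 216 and 246 FPKM. Again no library crossed between groups, and cytarabine 1 was the highest of the treated. The means were 135 ± 37.1 and 243 ± 26.3 FPKM, and the log2 fold change was −0.87 (SE 0.20, 95% interval −1.36 to −0.39; unadjusted limma p of 0.00474, adjusted p of 0.159). Its coefficient of variation over the 6 libraries, 34.8%, was the highest among the 8 tested members, the other 7 lying between 12.6% and 19.8%.

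Dnajb1, the inducible J protein that stimulates HSP70, measured 42.9, 39.7 and 33.5 FPKM with cytarabine and 48.6, 41.1 and 46.0 in controls. The groups overlapped, since cytarabine 1 was above control 2. The log2 fold change was −0.22 (SE 0.11, 95% interval −0.50 to 0.054; unadjusted limma p of 0.0953, adjusted p of 0.350).

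The inducible HSP70 genes were at or below 1.29 FPKM in every library. Hspa1a measured 0.117, 0.569 and 0.518 FPKM with cytarabine and 0.216, 0.279 and 0.1001 in controls. Hspa1b measured 0.175, 0.789 and 1.29 FPKM with cytarabine and 0.967, 0.772 and 0.266 in controls. Both genes had a mean below the filter of 1 FPKM and were not tested singly. At the inferred depth these levels stand for 3.12 to 29.4 reads of Hspa1a and 5.83 to 44.1 reads of Hspa1b per library, and 3 reads would give 0.058 to 0.102 FPKM for the 2 genes. Because reads cannot be assigned reliably between such near copies, their sum was also tested. The sum was 0.293, 1.36 and 1.81 FPKM with cytarabine and 1.18, 1.05 and 0.366 in controls, a log2 fold change of 0.16 (SE 0.40, 95% interval −0.83 to 1.15; unadjusted limma p of 0.704, adjusted p of 0.835). The highest sums were in cytarabine 3, cytarabine 2 and control 1, the same 3 libraries that held the most colon and smooth muscle transcript, and the part of those transcripts in the result was not tested.

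**Figure D2:**
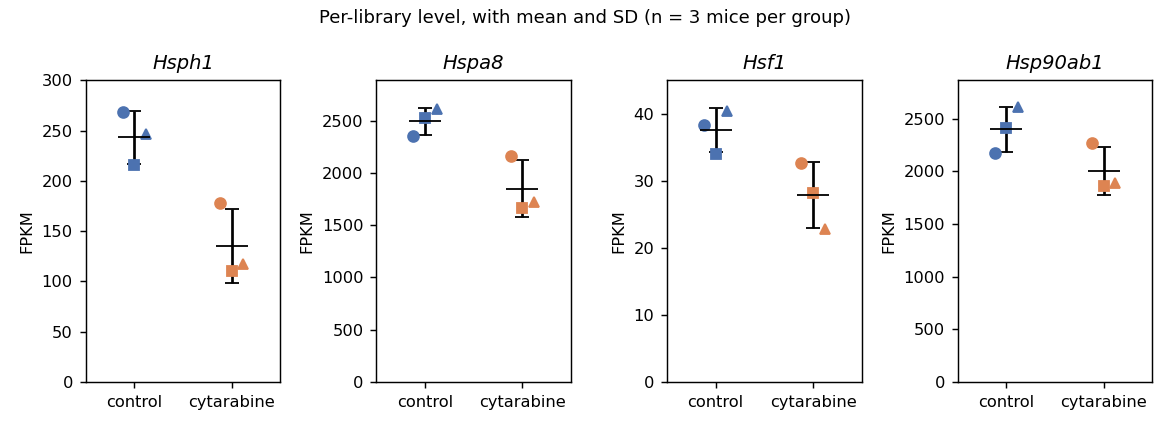
Level of Hsph1, Hspa8, Hsf1 and Hsp90ab1 in FPKM on axes that start at 0, with 1 point per mouse and the mean and SD of each group of 3 in black; circles, squares and triangles are replicates 1, 2 and 3. Hsph1, Hspa8 and Hsf1 do not overlap between groups, whereas Hsp90ab1 in cytarabine 1 (2265 FPKM) exceeds control 1 (2175 FPKM).

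The HSP90 genes, whose products hold kinases and steroid receptors in a form that can be activated, differed less. Hsp90ab1, the constitutive form, measured 2265, 1862 and 1884 FPKM with cytarabine and 2175, 2407 and 2609.8 in controls, a log2 fold change of −0.26 (SE 0.11, 95% interval −0.53 to 0.0078; unadjusted limma p of 0.0551, adjusted p of 0.295). Hsp90aa1, the more inducible form, measured 589, 484 and 519.6 FPKM with cytarabine and 691, 561 and 622 in controls, a log2 fold change of −0.23 (SE 0.11, 95% interval −0.50 to 0.034; unadjusted limma p of 0.0761, adjusted p of 0.324). In both genes the groups overlapped, with cytarabine 1 above control 1 for Hsp90ab1 and above control 2 for Hsp90aa1.

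The chaperonin genes encode the folding chamber (Hspd1, HSP60) and its lid (Hspe1, HSP10) of the mitochondrial matrix. Hspd1 measured 894, 715 and 706 FPKM with cytarabine and 992, 872 and 968 in controls, a log2 fold change of −0.30 (SE 0.11, 95% interval −0.57 to −0.021; unadjusted limma p of 0.0389, adjusted p of 0.266). Hspe1 measured 655, 532 and 486 FPKM with cytarabine and 709, 589.7 and 686 in controls, a log2 fold change of −0.25 (SE 0.13, 95% interval −0.58 to 0.074; unadjusted limma p of 0.107, adjusted p of 0.360). In both, cytarabine 1 was above control 2, so the groups overlapped even for Hspd1, which passed the unadjusted threshold.

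Ratios within a library do not depend on how libraries were scaled, and 4 were compared between groups with a two-sided exact permutation test over the 6 libraries, whose smallest possible p is 0.1. In all 4 the groups overlapped, and with this smallest p the design cannot reach 0.05. Hspa1a plus Hspa1b against Hspa8, the inducible over the constitutive HSP70, was −11.0 ± 1.61 on the log2 scale with cytarabine and −11.7 ± 0.99 in controls (exact p of 0.6, adjusted over the 4 ratios 0.8). Hsp90aa1 against Hsp90ab1 was −1.92 ± 0.049 and −1.94 ± 0.25 (exact p of 1, adjusted 1). Within controls it was higher in control 1, at a linear ratio of 0.318, than in controls 2 and 3, at 0.233 and 0.238. Hspd1 against Hspe1, the divergent pair, was 0.47 ± 0.060 and 0.52 ± 0.043 (exact p of 0.4, adjusted 0.8), which is a linear ratio of FPKM between 1.34 and 1.48 in every library. Dnajb1 against Hspa8 was −5.58 ± 0.16 and −5.79 ± 0.17 (exact p of 0.3, adjusted 0.8).

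The 8 tested members varied together across libraries. Pearson's r of log2(FPKM + 1) over the 6 libraries was above 0 for all 28 pairs, with a median of 0.898. The lowest was 0.637, between Hsp90aa1 and Hsp90ab1, and the highest 0.974, between Hsph1 and Hspd1. The divergent pair Hspd1 and Hspe1 was at 0.970. The 6 points share treatment group, depth and colon or heart transcripts, so these values are a description. Among genes outside the 10, the closest pattern to Hsf1 was that of 4933403F05Rik (r of 0.999), to Hspa8 that of Pdia4 (0.998), a disulfide isomerase of the endoplasmic reticulum, and to Hsph1 that of Mrps22 (0.999), a mitochondrial ribosomal protein. For Hsp90ab1 it was Tspan5 (0.9998), for Hsp90aa1 BC023829 (0.994), for Dnajb1 Dvl3 (0.992), for Hspe1 Top3b (0.993) and for Hspd1 Vps16 (0.998). Each is the largest r among all other tested genes over only 6 points, so it is high by selection and shows no link between the genes. Of the 100 genes nearest to each member, 0 to 3 were other members.

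Genes that work with the members were read from 6 lists with 85 genes, of which 82 were tested. None passed the adjusted threshold, and 15 were lower and 5 higher at an unadjusted p below 0.05, which is 24.4% of those tested against 17.4% of all genes. Over all genes tested, 9.81% were lower and 7.6% higher at that threshold. The counts of each list below are at the same threshold. The median log2 fold change of the 82 was −0.10. The lists are described by their counts alone, and no test of a list was made.

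Among 16 cochaperones of HSP90, 6 were lower and 1 higher at an unadjusted limma p below 0.05, with a median of −0.14. The log2 fold change was below 0 in 11 of the 16 and above 0 in 5. Ppid, the cyclophilin that docks on HSP90, averaged 100.2 ± 13.2 FPKM with cytarabine and 151 ± 5.63 in controls, without overlap (log2 fold change −0.59, adjusted limma p of 0.136). Ppp5c, the phosphatase that acts on HSP90 clients, averaged 73.2 ± 4.69 and 90.5 ± 3.12 FPKM (−0.30, adjusted limma p of 0.159). Cdc37l1, a relative of the kinase adaptor Cdc37, was the 1 gene higher at the unadjusted threshold. It was at 13.8 ± 0.891 against 10.8 ± 1.82 FPKM (0.33, adjusted limma p of 0.274). Chordc1, Fkbp4, Ahsa1 and Tsc1 were singled out after their values were seen. Chordc1 is the only gene of this list with an element of 3 units in its window, of 15 with a window, and averaged 43.3 ± 8.86 and 61.9 ± 2.06 FPKM (−0.53, adjusted limma p of 0.193). Fkbp4, the immunophilin of steroid receptor complexes, averaged 164 ± 29.5 and 243 ± 16.9 FPKM (−0.57, adjusted limma p of 0.166). Ahsa1 and Tsc1 were the remaining genes lower at the unadjusted threshold. Ahsa1, the activator of the HSP90 ATPase, was at 169 ± 22.5 against 211 ± 7.70 FPKM, and Tsc1 at 8.02 ± 0.842 against 10.1 ± 0.312 FPKM.

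The list of HSP70 partners held 24 genes: J proteins, exchange factors and adaptors of HSP70, and other HSP70 genes. At an unadjusted limma p below 0.05, 2 were lower and 2 higher, with a median of −0.04 over the list. Stip1, the adaptor between HSP70 and HSP90, averaged 137 ± 19.3 and 174 ± 9.71 FPKM (−0.35, adjusted limma p of 0.215). Dnajc2, a J protein at the ribosome, averaged 55.8 ± 3.28 and 63.2 ± 1.55 FPKM (−0.18, adjusted limma p of 0.252). The J protein gene Dnajb6 was higher with cytarabine, at 95.2 ± 2.88 against 81.7 ± 1.73 FPKM (0.22, adjusted limma p of 0.166). It was the only gene of this list with an element of 3 units, of 20 with a window. Whether the element goes with the direction of change was not tested. Bag1, an exchange factor that also binds BCL2, was likewise higher at 124 ± 9.69 against 102 ± 4.00 FPKM (0.27, adjusted limma p of 0.192).

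The next list held 14 subunits of the cytosolic chaperonin TRiC and of prefoldin, which fold actin and tubulin. The log2 fold change was below 0 in 10 and above 0 in 4, with a median of −0.13. At an unadjusted limma p below 0.05, 4 were lower and none higher. These lower genes were all TRiC subunits, Cct3, Cct4, Cct6a and Cct7, the last pair being named after their values were seen. Cct3 averaged 237 ± 11.9 and 289 ± 7.56 FPKM (−0.29, adjusted limma p of 0.151) and Cct4 averaged 213 ± 7.28 and 252 ± 8.80 FPKM (−0.24, adjusted limma p of 0.166).

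Of 12 other mitochondrial chaperones and proteases, 2 were lower and 1 higher at an unadjusted limma p below 0.05 (median −0.09). Hspa9, the mitochondrial HSP70, averaged 221 ± 2.14 and 253 ± 14.3 FPKM (−0.19, adjusted limma p of 0.214), and the protease gene Clpp averaged 46.3 ± 2.10 and 54.7 ± 1.40 FPKM (−0.24, adjusted limma p of 0.176). Hscb, a J protein of iron-sulfur cluster assembly, was higher at 22.1 ± 2.51 against 17.9 ± 1.38 FPKM (0.28, adjusted limma p of 0.254).

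Of the 8 tested genes among other heat shock factors and regulators, 1 was lower and 1 higher at an unadjusted limma p below 0.05 (median −0.08). The lower was l7Rn6 (Hikeshi), the carrier that takes HSP70 into the nucleus, at 57.7 ± 8.24 against 70.5 ± 0.65 FPKM (−0.29, adjusted limma p of 0.258). The higher was Hsf4, at 2.95 ± 0.499 against 1.83 ± 0.391 FPKM (0.48, adjusted limma p of 0.279).

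No small heat shock protein passed even the unadjusted threshold, though the levels of some spread widely, and Hspb1 and Cryab were chosen as examples after their values were seen. Hspb1 measured 0.875, 9.01 and 22.9 FPKM with cytarabine and 30.8, 6.13 and 0.373 in controls. Cryab measured 0.623, 5.82 and 21.97 FPKM with cytarabine and 69.1, 21.6 and 1.24 in controls. Both genes are abundant in muscle and were highest in control 1 and cytarabine 3, the libraries with the highest sums of heart markers, and the part of heart transcripts in these levels was not tested. The median of −0.31 over the 8 tested small heat shock proteins came with intervals most of which spanned several log2 units.

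**Figure D3:**
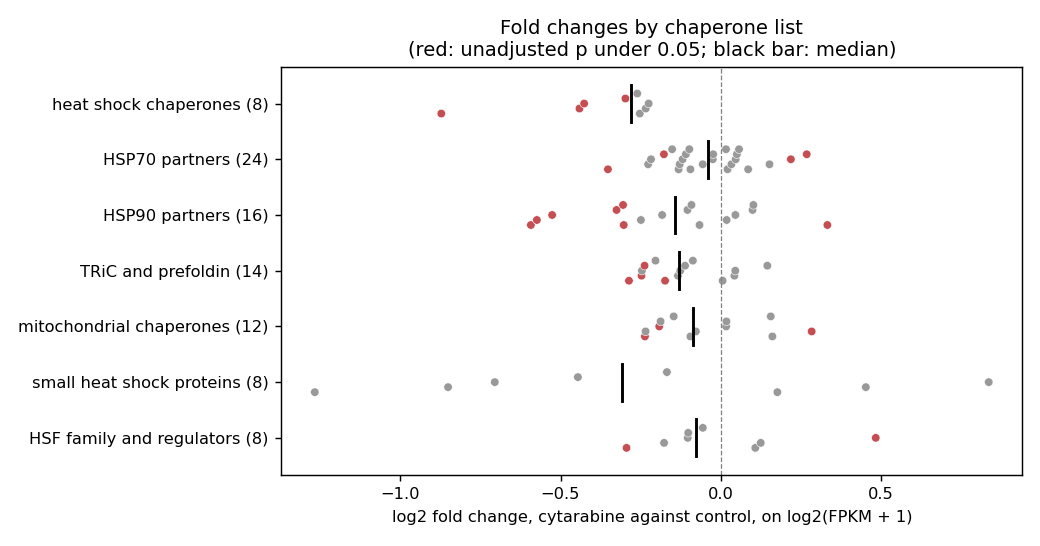
Log2 fold change, cytarabine against control, on log2(FPKM + 1) for each tested gene of 7 groups, with the number tested in brackets; red points have an unadjusted p under 0.05, grey points do not, and black bars are medians. All 8 heat shock chaperones lie left of 0 with a median of −0.28, and the small heat shock proteins run from −1.27 to 0.84.

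The comparison was also made within the 3 libraries with the most colon transcript and the 3 with the least, which leaves 1 library in an arm of each set. Colon transcript was not equal within a set, and in both it was higher with cytarabine. The marker sums were 5122 and 5548 against 2485 FPKM in the first set, and 393 against 33.3 and 30.3 in the second. The library alone in its arm was cytarabine 1 in the set with little colon transcript and control 1, the library with the most heart transcript, in the other. Among the libraries with much colon transcript (cytarabine 2 and 3 against control 1), the log2 fold change was −1.23 for Hsph1, −0.58 for Hsf1, −0.48 for Hspd1 and −0.47 for Hspa8. Among those with little (cytarabine 1 against controls 2 and 3), it was −0.37, −0.17, −0.04 and −0.25 for the same genes. Hsp90aa1 was at −0.46 in the first set and −0.0035 in the second, Dnajb1 at −0.40 and −0.02, and Hsp90ab1 at −0.22 and −0.15. The medians over the 8 members were −0.48 and −0.093, and Hspe1 was −0.48 in the first set and 0.043 in the second set. With 3 libraries in each set, no test was made within them. With the colon and heart scores as covariates, Hsph1 was at −0.84 (unadjusted limma p of 0.142), Hspa8 at −0.26 (p of 0.237) and Hsf1 at −0.72 (p of 0.038). Hsf1 was then the only member below 0.05, where 535 of the 11703 genes tested passed, and its adjusted limma p was 0.999. The libraries were also scaled to an equal level of Ptprc, the white blood cell gene, an alternative added after the data had been seen. This moved the median of all genes to 0.12, and all 8 members were below it and below 0, with Hsph1 at −0.74 (unadjusted limma p of 0.0097, adjusted p of 0.400), Hspa8 at −0.30 (unadjusted p of 0.0568) and Hsf1 at −0.29 (unadjusted p of 0.147).

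Cytarabine 1 decided much of the count. Without it all 8 members had an unadjusted limma p below 0.05, as did 4111 of 11807 genes, and the smallest adjusted p among members was 0.0502, for Hsph1. Without cytarabine 2, cytarabine 3 or control 3, only Hspa8 and Hsph1 remained below 0.05. Among all genes, 1287 of 11575, 1254 of 11534 and 1176 of 11834 then passed. Cytarabine 1 was the treated library with the least colon transcript, the highest neutrophil sum and 71.1 FPKM of Mpo, the myeloperoxidase gene of early myeloid cells, where the other 5 libraries had 2.33 to 12.3 FPKM. Sums of immediate-early genes, which handling of cells can induce, were 282 to 303 FPKM in cytarabine libraries and 179 to 244 in controls, with 2 of 12 genes higher at an unadjusted p below 0.05. The part of these differences in the chaperone values was not tested.

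**Figure D4:**
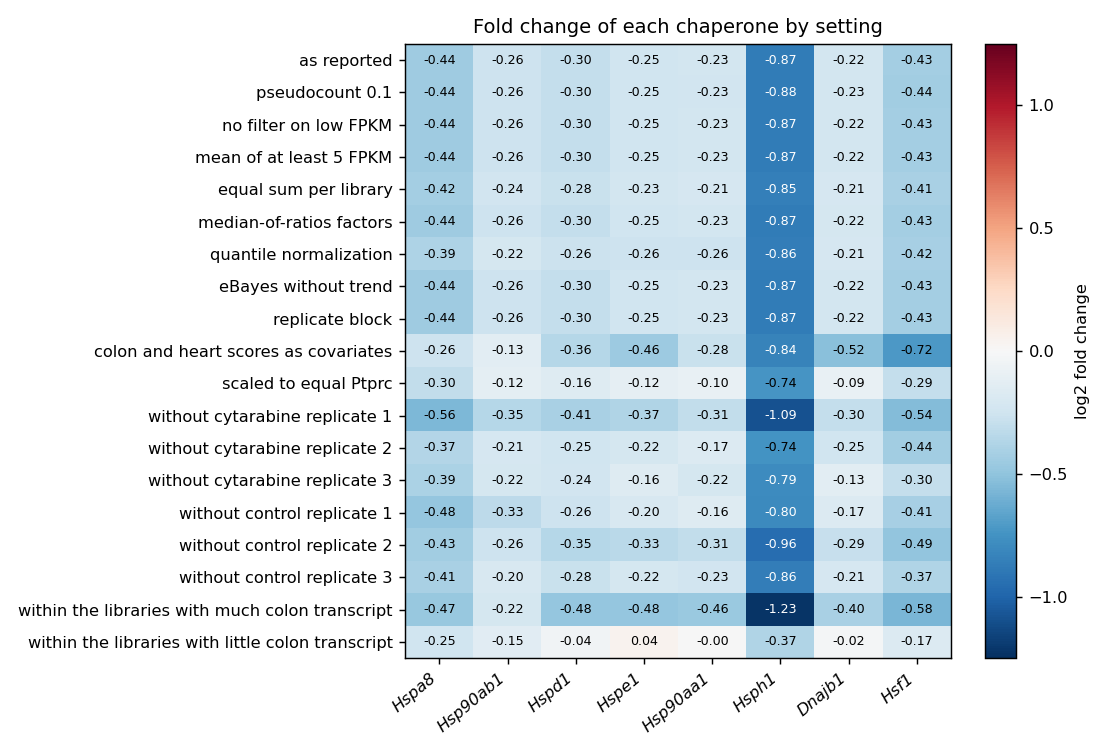
Log2 fold change, cytarabine against control, of the 8 tested members (columns) in the analysis as reported and under each alternative (rows), coloured from blue (lower) to red (higher). Hsph1 runs from −1.23 to −0.37 and Hspa8 from −0.56 to −0.25, and the single value above 0 is Hspe1 at 0.04 among the libraries with little colon transcript.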

How the data were processed

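RNA from sorted C1498 cells was made into stranded mRNA libraries and sequenced as 75-base single reads. Per the labels, the authors used TopHat2 2.0.13, Bowtie2 2.2.3, SAMtools 0.1.19 and Cufflinks 2.2.1 on mm10, and deposited FPKM values per gene. The gene annotation and the Cufflinks options are not given in the sources used here, and no counts were used.

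The FPKM values, as deposited, were taken to log2 after adding 1. Of 23284 genes listed, the 11703 whose mean over the libraries reached 1 FPKM were fitted with limma 3.58.1 in R 4.3.3 (eBayes with trend, no covariates, Benjamini-Hochberg over all genes tested). Fold changes are on that scale and understate the change of low genes. Ratios were compared by exact permutation in Python 3.11.15, and figures were drawn with matplotlib 3.10.9. Groups and replicate numbers came from the source names of the sample records, and the sample titles number the libraries differently. The members and lists were chosen with earlier results of these data known. Named genes were every member, up to 2 genes per list and direction with the smallest unadjusted p and groups that did not overlap, and the closest non-member of each member by Pearson's r. Outside this rule, Ahsa1, Chordc1, Fkbp4, Tsc1, Cct6a, Cct7, Hspb1 and Cryab were named after their values were seen. So were the marker genes Mpo, Itga2, Cd33, Itgam, Kit, Cebpa, Myb, Sfpi1, Csf1r, Cd3e, Cd3d, Cd4, Cd8a, Cd8b1, Cd5 and Cd247. Of each marker list the gene with the highest mean was taken. These were Ptprc for the leukemia line, Zg16 (colon epithelium), Nppa (heart), Acta2 (smooth muscle), S100a8 (neutrophil), C1qa (macrophage), Beta-s (erythroid), Cd3g (T cell), Klrk1 (NK cell) and Ier2 (immediate-early).

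Depth was inferred from the smallest steps of FPKM among 3456 genes with 1 transcript, assuming fragments of 200 bases, and was 11250000 to 18700000 reads per library. It covers counting error only. The fit was also run on simulated data with independent noise at the spread of each gene. The changed genes had a mean of at least 5 FPKM. At an adjusted limma p below 0.05, 42% of log2 changes of 0.5 and 76% of changes of 1 were recovered. False calls numbered 4. The simulation held no differences shared across genes, such as those in colon and heart transcript between the real libraries. The recovered shares may therefore not hold for the real data, where no gene passed the adjusted threshold. Whether reads were counted by strand is not stated, so Hspd1 and Hspe1, whose annotated 5′ ends overlap, may share a few reads. Sums of the other marker lists were 324 to 476 FPKM with cytarabine and 344 to 441 in controls for the leukemia line, 11.7 to 54.1 and 10.0 to 144 for macrophages, 41.6 to 309 and 38.2 to 72.1 for erythroid cells, 588 to 790 and 707 to 857 for T cells, and 57.6 to 74.2 and 38.3 to 55.6 for NK cells. Alternatives were another pseudocount, other filters and scalings, no trend, a replicate block, tissue scores as covariates, within-set values, leaving out each library, and, added after seeing the data, scaling to Ptprc.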

Additional observations from a re-analysis of the deposited data

How the results depend on the processing

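All 8 tested members kept a log2 fold change below 0 under every limma alternative run, and Hspe1 alone turned, to 0.043, among the libraries with little colon transcript. Genes passing the adjusted threshold numbered 0 as reported, 1 with a pseudocount of 0.1, 2 without the trend and 0 to 6 when each library was left out. Genes below the unadjusted threshold numbered 2038 as reported, 535 with tissue covariates, 1122 with scaling to Ptprc and 1176 to 4111 when each library was left out. Lower values made up 56.3% of those calls as reported and 25.3% with scaling to Ptprc. Members below the unadjusted threshold numbered 4 as reported, 1 with covariates, 1 with scaling to Ptprc and 2 to 8 when each library was left out. Genes of the 6 chaperone lists numbered 20, 2 with covariates, 4 with scaling to Ptprc and 10 to 37. The members' median of −0.28 became −0.48 among the libraries with much colon transcript, −0.093 among those with little, and −0.39 to −0.23 when each library was left out.

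By the source-name numbers used here, which the sample titles do not share, deviations of same-numbered libraries correlated at −0.709, −0.247 and −0.594, so these numbers were not taken as pairing the mice. With the replicate block on them, 994 genes and 7 chaperone list genes were below the unadjusted threshold, as were 4 members in limma, Hsph1 (p 0.00293), Hsp90aa1 (0.0294), Hspa8 (0.0339) and Hspd1 (0.0368), while Hsf1 was at 0.0542, all with adjusted p of 0.567 or more.

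The ratio of Hspa1a plus Hspa1b to Hspa8 differed by 0.66 as reported, −0.83 among the libraries with little colon transcript and 0.092 to 1.58 when each library was left out. The ratio of Hsp90aa1 to Hsp90ab1 differed by 0.026 as reported, −0.25 among the libraries with much colon transcript, and −0.053 to 0.17 when each library was left out, reaching −0.0023, −0.053 and −0.038 without cytarabine 3, control 2 and control 3. The log2 difference of Hspa1b was −0.0011 with a pseudocount of 0.1 and −0.18 to 0.30 when each library was left out, below 0 without cytarabine 2 (−0.00014), cytarabine 3 (−0.18) and control 3 (−0.15). The ratios of Hspd1 to Hspe1 and of Dnajb1 to Hspa8 ran from −0.079 to −0.020 and from 0.12 to 0.31 when each library was left out. Among the libraries with much and with little colon transcript they were −0.0030 and −0.083 for Hspd1 to Hspe1, and 0.060 and 0.23 for Dnajb1 to Hspa8. The cause of these shifts was not tested. With 3 mice a group the exact test cannot fall below 0.1.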
